A study of Mus musculus with 19 samples.

Results

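The 44 genes described here encode the machinery of DNA replication and cell division. They were chosen by symbol for their known roles: 10 genes for the licensing of replication origins and the replication fork (Mcm2 to Mcm7, Cdc6, Cdt1, Gins2 and Pcna), 4 genes that supply deoxynucleotides (Rrm1, Rrm2, Tyms and Tk1), 16 genes of mitosis, 3 general markers of cells between S phase and mitosis (Mki67, Top2a and Ccna2), 6 genes of the G1 phase (Ccnd1, Ccnd2, Ccnd3, Ccne1, Ccne2 and Cdk2), 2 E2F factors (E2f1 and E2f8) and 3 inhibitors of cyclin-dependent kinases (Cdkn1a, Cdkn1b and Cdkn2c). Each of the 44 symbols matched 1 of the 49089 rows of the deposited count table. All 44 genes passed the filter on low values (a CPM of 3 or more in no fewer than 3 of the 19 libraries, where CPM is counts scaled to library size) and were tested among 17222 genes.

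RNA was sequenced from endometrium scraped away from the muscle layer of wild-type (WT) C57Bl/6 female mice. The control group (CONT, n = 3, numbered 1, 2 and 4) held untreated virgin females at estrus. They were collected late in the evening on the day proestrus was detected, around the time of ovulation. The second group (INT, n = 4) was mated with intact BALB/c males and collected at noon on day 3.5 pc, from females of 8 to 14 weeks. The hour of collection thus differed between CONT and INT, and its part in the results was not tested. Each of the other 3 groups (n = 4 each) was mated with surgically altered males and also collected on day 3.5 pc, and their labels disagree. The columns named SVX, SVX_VAS and VAS carry titles that name a vasectomised, a seminal vesicle-deficient, and a seminal vesicle-deficient and vasectomised male, respectively. These groups are therefore called by their column names, and no operation is assigned to them. The age of the females in the CONT, SVX, SVX_VAS and VAS groups was not given in the sources used here. Tissue was pooled within a sample and the number of animals per pool was not stated, so the p-values measure the spread between pools. Total counts ranged from 12661266 to 31781270 per library.

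A dividing cell prepares in G1, copies its DNA in S phase and separates the copies in mitosis. The D-type cyclins drive G1, E2F factors switch on the replication genes, and a later set of genes that peaks in G2 and mitosis is held under cell cycle control through CHR elements in the promoters. In the mouse uterus, estrogen around ovulation is known for driving division of the epithelium. After mating, progesterone moves division from the epithelium to the stroma ahead of implantation.

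The promoters of the replication and mitosis genes differ in the short words they hold, and some stretches are printed here to show those words. No relation between the words and the expression values was tested. All are from the RefSeq promoter table of build GRCm38.p6, which covers 250 bases before to 50 bases after each start, and all are written 5′ to 3′ on the strand of the gene. Capitals mark 3 kinds of word, read on both strands: E2F words (TTTCCCGC, TTTCGCGC, TTTGCCGC or TTTGGCGC), CHR words (TTTGAA or TTCGAA) and CCAAT. In the first pair, from the replication genes Mcm5 (chr8:75109349-75109508, plus strand) and Mcm6 (chr1:128359706-128359823, minus strand), capitals mark E2F words alone. The capital run in Mcm5 and the first in Mcm6 are each 2 overlapping E2F words on opposite strands, and CCAAT is left in lower case there.
Mcm5: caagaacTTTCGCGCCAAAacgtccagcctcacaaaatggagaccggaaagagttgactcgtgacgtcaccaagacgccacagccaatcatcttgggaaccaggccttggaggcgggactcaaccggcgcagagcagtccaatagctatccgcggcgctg
Mcm6: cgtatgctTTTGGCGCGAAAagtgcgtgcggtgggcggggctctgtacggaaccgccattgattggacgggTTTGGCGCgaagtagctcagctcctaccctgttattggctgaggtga

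The stretches of the mitosis genes Cdc20 (chr4:118437344-118437443, minus strand) and Kif11 (chr19:37376282-37376381, plus strand) hold CHR and CCAAT words in capitals. Cdk1 (chr10:69352913-69353052, minus strand) holds all 3 kinds.
Cdc20: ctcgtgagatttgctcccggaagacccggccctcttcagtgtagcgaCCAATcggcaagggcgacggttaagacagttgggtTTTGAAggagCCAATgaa
Kif11: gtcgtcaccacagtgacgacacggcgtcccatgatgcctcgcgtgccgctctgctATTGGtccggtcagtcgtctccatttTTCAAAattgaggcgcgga
Cdk1: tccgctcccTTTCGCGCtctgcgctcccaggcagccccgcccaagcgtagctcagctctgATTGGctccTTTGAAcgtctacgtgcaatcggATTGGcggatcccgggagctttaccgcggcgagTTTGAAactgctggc

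The RefSeq table held 39 promoters of 35 of the 44 genes. An E2F word stood in 6 of 13 replication promoters (46.2%), in 1 of 13 mitosis promoters (7.69%, Cdk1) and in 2.26% of all 32851 promoters. A CHR word stood in 2 of 13 replication promoters (15.4%), in 10 of 13 mitosis promoters (76.9%) and in 19.2% of all promoters. The promoters of the mitosis genes Ccnb1 and Cenpe held CCAAT and no CHR word. CCAAT stood in 9 of 13 replication promoters (69.2%), 12 of 13 mitosis promoters (92.3%) and 37.4% of all promoters. A match is a string of letters in this window and says nothing of what is bound there.

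Several properties of the libraries bear on the values. VAS replicates 2 and 3 stood apart from the other 17 libraries: the 50 most abundant genes took 3.6% and 3.61% of their counts, against 8.61 to 10.6% in the others, and long intergenic non-coding RNA took 0.858% and 0.824%, against 2.65 to 4.59%. The main counts and medians of VAS, and its values for the D-type cyclins, E2f1, Cdkn1a and Cdkn1b, are given with and without both. The tissue was mixed and its composition moved with the groups. The summed level of 8 epithelial markers was 4034 to 5487 CPM at estrus and 791 to 2697 CPM in INT, while 7 endothelial markers summed to 145 to 210 and 537 to 824 CPM. The part of these shifts in the results was not tested, and in whole tissue fewer cells of a type and less RNA per cell cannot be told apart. A gene was called when the false discovery rate (FDR, the Benjamini-Hochberg adjusted p of the edgeR quasi-likelihood test over all 17222 genes) was under 0.05 and the change was at least 1.5-fold. Fold changes are given as logFC, the log2 ratio of the first group over the second. The 4 comparisons with estrus share the same 3 CONT libraries and are not independent of each other.

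At estrus every class of genes was represented. Per kilobase of gene model (RPKM), the highest members were Mki67 (59.2, the proliferation antigen Ki-67), Top2a (54.3, DNA topoisomerase II alpha) and Ccnd1 (39.0, cyclin D1), and the lowest was E2f1 (2.43). In the INT group on day 3.5 pc, Mki67 (44.4 RPKM) and Top2a (42.1 RPKM) were still the highest. Of the 44 genes, 1 rose (Ccnd2, cyclin D2) and 1 fell (Aurka, the mitotic kinase Aurora A) in INT. Across all genes tested, 20.9% were called higher and 12.7% lower in this comparison. The median logFC was -0.38 over the 44 genes and -0.01 over all genes, and 37 of the 44 were below 0. With 1 library left out the median of the 44 ran from -0.59 (without INT 3) to -0.27 (without CONT 1). The values of the INT libraries lay above all 3 CONT libraries for 1 member (background 31%) and below them for 7 (background 31.3%): Gins2, Rrm1, Aurka, Ccnd1, Ccnd3, Cdkn1a and Cdkn1b.

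**Figure D1:**
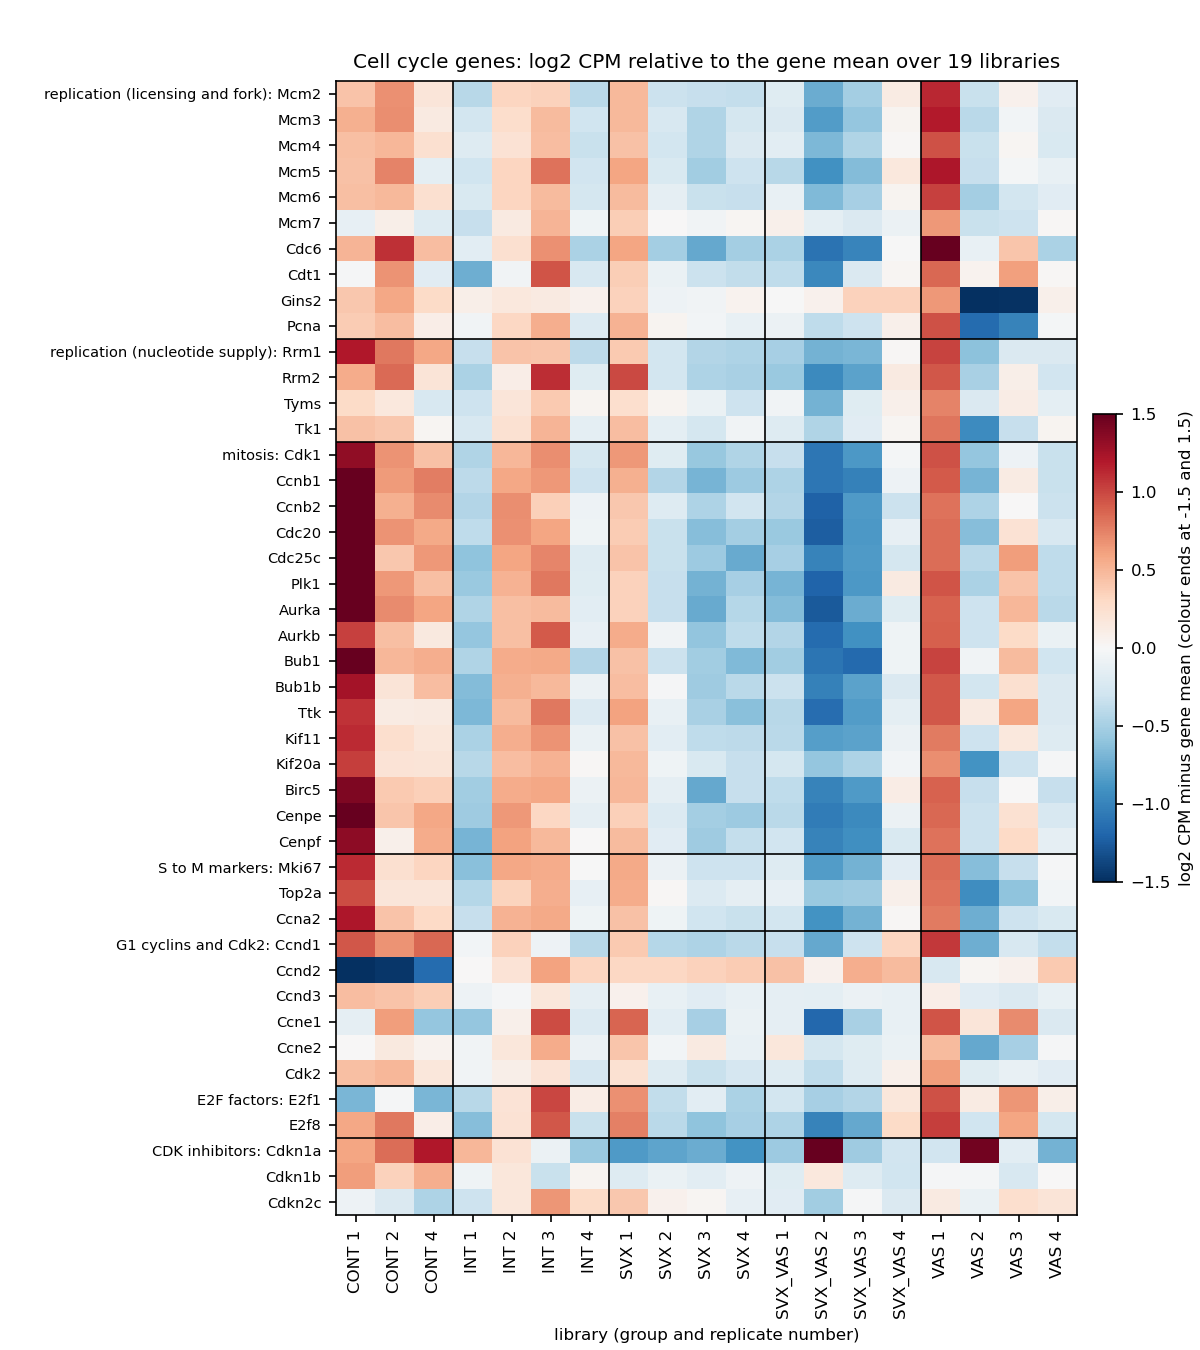
Heat map of the 44 genes (rows, ordered by class) in the 19 libraries (columns, by group), coloured by log2 CPM minus the gene's mean over all libraries. The 16 mitosis rows are highest in CONT replicate 1 and nearly all are lowest in SVX_VAS replicate 2, INT replicates 2 and 3 lie above replicates 1 and 4 in most rows, and Ccnd2 has its 3 lowest values at estrus.

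The D-type cyclins, which pair with CDK4 and CDK6 to start G1, went in different directions. Ccnd2 stood at 28.4, 32.4 and 40.2 CPM in the CONT libraries and at 89.3, 103, 136 and 111 CPM in the INT libraries. It measured 111, 111, 114 and 117 CPM in SVX, 121, 93.0, 131 and 124 CPM in SVX_VAS, and 75.6, 91.0, 93.0 and 117 CPM in VAS. Every day 3.5 pc library lay above every estrus library. In the edgeR test Ccnd2 rose 3.27-fold in INT (logFC 1.71 ± 0.17 SE, FDR 3.32e-06), and the logFC was 1.75 in SVX, 1.80 in SVX_VAS and 1.49 in VAS (1.56 without VAS replicates 2 and 3). The call held under every alternative tried in all 4 comparisons. Its length-corrected level moved from 3.58 RPKM, rank 42 of the 44 genes at estrus, to 11.7 RPKM, rank 20, in INT. Ccnd2 (chr6:127125162-127152193, minus strand, GRCm38) shares exon positions with the opposite-strand genes 9330179D12Rik and Gm43126, and whether counting used strand was not stated. The same doubt holds for Ccnd1, Ccnd3, Ccne2, E2f8, Mcm7, Gins2, Tk1, Cdc20, Plk1, Kif20a and Ccna2, which also share exon positions with a gene on the opposite strand.

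Ccnd1 gave the opposite picture. It measured 197, 165 and 189 CPM at estrus, 101, 132, 98.5 and 77.4 CPM in INT, 136, 76.7, 74.9 and 78.0 CPM in SVX, 81.6, 60.9, 83.8 and 129 CPM in SVX_VAS, and 216, 62.6, 87.6 and 80.9 CPM in VAS. No library of INT, SVX or SVX_VAS reached the lowest estrus library, whereas VAS replicate 1 exceeded them all. Ccnd1 fell in SVX (logFC -1.01 ± 0.36 SE, edgeR FDR 0.0241) and SVX_VAS (-1.05 ± 0.36, FDR 0.0211). Both calls were lost under glmTreat and without CONT 1, that in SVX also without CONT 4, SVX 2, SVX 3 or SVX 4, and that in SVX_VAS without SVX_VAS 2. It missed the call in INT (-0.85 ± 0.36, edgeR FDR 0.0618) and in VAS (-0.72 ± 0.36, FDR 0.0979). Without VAS replicates 2 and 3 the VAS value was -0.25 (edgeR FDR 0.613). Ccnd3 (cyclin D3) varied little within the groups: 106, 104 and 99.7 CPM at estrus and 66.3 to 86.9 CPM in all 16 libraries of day 3.5 pc. Its groups did not overlap and its edgeR FDR was 0.000513 in INT, but its logFC of -0.43, and of -0.50, -0.55 and -0.52 in SVX, SVX_VAS and VAS, stayed under 1.5-fold in every comparison (-0.38 in VAS without replicates 2 and 3).

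The E-type cyclins and Cdk2, which act at entry into S phase, were called in no comparison. Ccne1 ranged from 5.57 to 12.8 CPM at estrus and from 5.56 to 16.5 CPM in INT (logFC 0.13 ± 0.42 SE). Ccne2 ranged from 26.8 to 29.5 CPM and from 25.0 to 39.3 CPM (0.10 ± 0.24), so both overlapped between the groups. Cdk2 measured 58.0, 59.9 and 47.8 CPM at estrus and 41.0, 45.2, 49.1 and 35.8 CPM in INT (-0.37 ± 0.19). Its logFC was -0.50 in SVX and -0.54 in SVX_VAS, with an edgeR FDR of 0.0344 and 0.0247 and a change under 1.5-fold.

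E2f1, an activating E2F factor, measured 6.38, 10.2 and 6.40 CPM at estrus and 7.74, 11.9, 20.7 and 11.1 CPM in INT. The groups overlapped and the logFC was 0.75 ± 0.35 SE (edgeR FDR 0.0904). In VAS it measured 20.0, 11.2, 16.4 and 10.9 CPM, all above estrus, and rose (0.93 ± 0.35, edgeR FDR 0.0328). Without VAS replicates 2 and 3 together it was 1.06 (edgeR FDR 0.0436), but the call was lost when any of VAS replicates 1 and 3 or CONT replicates 1 and 4 was left out, with no filter on low counts, under glmTreat and with the replicate block (0.83, edgeR FDR 0.0754). E2f8, a repressive E2F factor, overlapped between INT (13.8 to 40.8 CPM) and estrus (23.0 to 36.9 CPM), with a logFC of -0.35 ± 0.44 SE.

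The 3 kinase inhibitors did not move together. Cdkn1b, which encodes p27, measured 127, 104 and 120 CPM at estrus, 78.6, 92.7, 65.3 and 84.7 CPM in INT, 71.9, 76.3, 73.8 and 78.2 CPM in SVX, 72.4, 91.3, 71.7 and 66.5 CPM in SVX_VAS, and 81.0, 80.4, 69.3 and 82.4 CPM in VAS. All day 3.5 pc libraries lay below the estrus libraries. Cdkn1b fell in SVX (logFC -0.64 ± 0.12 SE, edgeR FDR 0.000235) and SVX_VAS (-0.63 ± 0.12, FDR 0.000319), but both changes were under 1.5-fold with upper quartile scaling and without CONT 1, as was that in SVX_VAS without SVX_VAS 4, and neither was called by glmTreat. In INT (-0.54, edgeR FDR 0.0013) and VAS (-0.58, FDR 0.000622) it was just short of 1.5-fold, and in VAS without replicates 2 and 3 it was at -0.47 (edgeR FDR 0.0148).

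Cdkn1a, which encodes p21, measured 11.6, 13.7 and 17.7 CPM at estrus and 10.8, 8.95, 7.20 and 5.22 CPM in INT (logFC -0.83 ± 0.54 SE, edgeR FDR 0.219). In SVX it measured 4.26, 4.45, 4.58 and 4.13 CPM, below every estrus and every INT library, and fell by 1.72 on the log2 scale (SE 0.55, edgeR FDR 0.0132), a call that held under every alternative. In SVX_VAS it measured 5.28, 24.2, 5.31 and 6.29 CPM, and in VAS 6.27, 21.0, 6.87 and 4.70 CPM, so that replicate 2 of each lay above all estrus libraries. Neither group was called, but without its replicate 2 each was (logFC -1.35, edgeR FDR 0.0162 for SVX_VAS, and -1.24, FDR 0.0419 for VAS). Without VAS replicates 2 and 3 together the VAS value was -1.33 (edgeR FDR 0.0622). The median log2 CPM of a list of estrogen-response genes was 9.08 in SVX_VAS replicate 2, against 4.28, 4.31 and 7.44 in the others of its group. In VAS it was 7.14 in replicate 2 and 8.82, 6.12 and 4.49 in the others. The part of that list's level in the Cdkn1a values was not tested. Cdkn2c, an inhibitor of CDK4 and CDK6, measured 20.1, 18.3 and 15.4 CPM at estrus and 17.1, 23.9, 33.7 and 26.0 CPM in INT (logFC 0.49 ± 0.19 SE, edgeR FDR 0.0454), under 1.5-fold and with overlap.

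**Figure D2:**
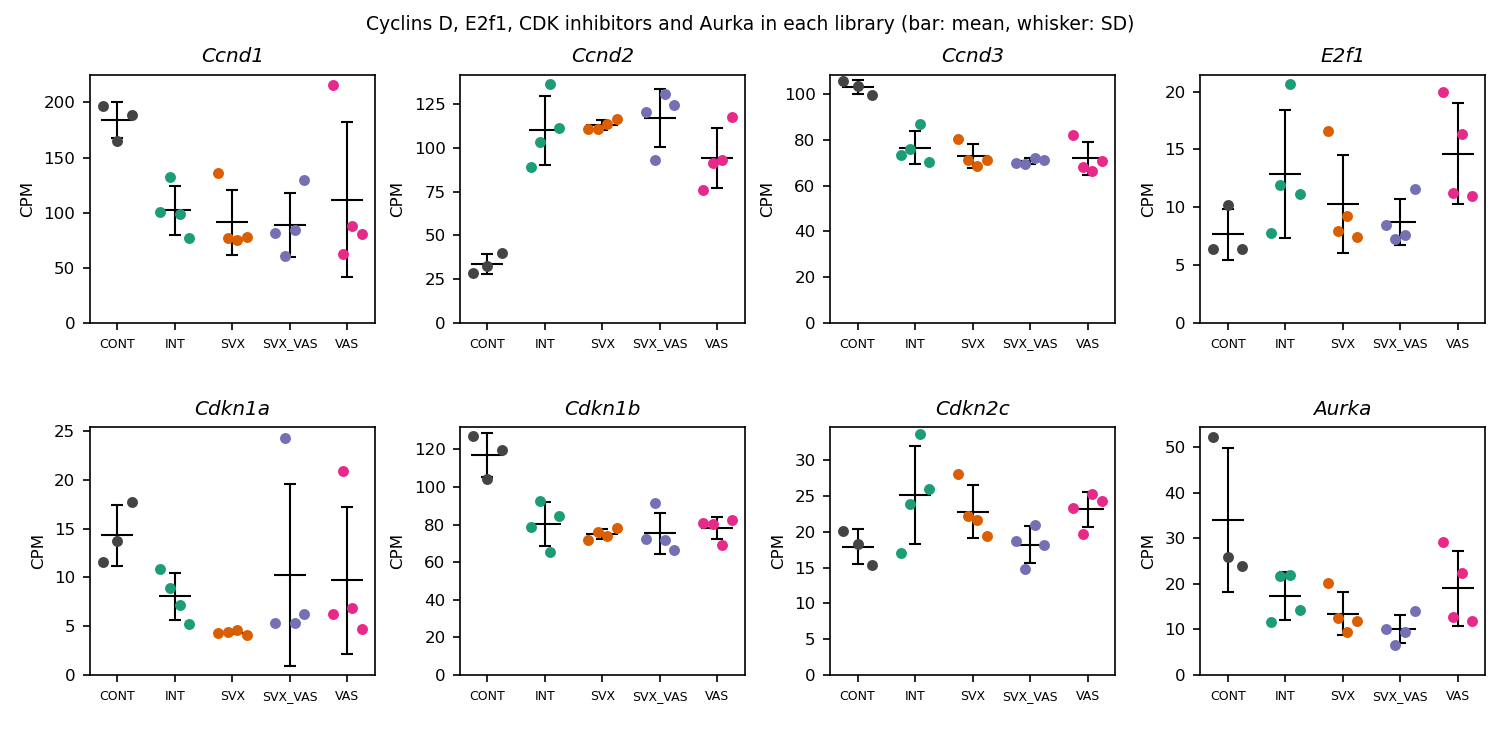
CPM of 8 named genes (Ccnd1, Ccnd2, Ccnd3, E2f1, Cdkn1a, Cdkn1b, Cdkn2c and Aurka) in each library (points) by group, with the group mean and SD (bars). Ccnd2 is higher in all 16 libraries of day 3.5 pc than at estrus, Ccnd3 and Cdkn1b are lower in all 16, and Cdkn1a is high in replicate 2 of SVX_VAS and of VAS.

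The 14 replication genes address whether transcripts of origin licensing and DNA synthesis differed between estrus and day 3.5 pc, and in INT none was called. Their median logFC was -0.28, with 12 of 14 below 0. Mcm2 to Mcm7 form the ring helicase that is loaded onto origins. Mcm5 measured 86.1, 106 and 57.0 CPM at estrus and 51.3, 79.2, 112 and 51.8 CPM in INT (logFC -0.18 ± 0.40 SE). Mcm6 measured 151, 155 and 130 CPM and 93.8, 137, 153 and 92.0 CPM (-0.28 ± 0.32). In both genes INT replicates 2 and 3 reached the estrus range and replicates 1 and 4 lay below it. Among the Mcm genes the logFC ran from -0.44 for Mcm2 to 0.17 for Mcm7, whose sequence is in part shared with other genes (18.1% of its 50-base words).

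Cdc6 and Cdt1, the loading factors of the helicase, had the lowest length-corrected levels of the 14 at estrus (5.22 and 4.88 RPKM). Cdc6 measured 23.6, 35.4 and 22.9 CPM at estrus and 14.8, 19.6, 26.5 and 11.9 CPM in INT (logFC -0.58 ± 0.45 SE). Cdt1 measured 13.1, 21.1 and 11.8 CPM and 7.97, 12.7, 25.3 and 11.2 CPM (-0.10 ± 0.36). Both overlapped. Gins2, part of the active helicase, was 55.8, 63.0 and 51.7 CPM at estrus and 45.1, 47.0, 46.5 and 44.2 CPM in INT, so the groups did not overlap, but its logFC of -0.31 ± 0.41 SE was not called. This SE is from the fit of all 5 groups. The SD of Gins2 was 5.74 CPM in CONT, 1.28 in INT and 26.1 in VAS. Pcna, the sliding clamp of the polymerases, had a logFC of -0.14 ± 0.37 SE, and 19.1% of its 50-base words also occur in another gene, Pcna-ps2.

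Of the nucleotide supply genes, Rrm1, the large subunit of ribonucleotide reductase, had the most negative value. It measured 272, 205 and 176 CPM at estrus and 92.7, 158, 158 and 90.0 CPM in INT, with no overlap (logFC -0.80 ± 0.35 SE, edgeR FDR 0.0697). In SVX it measured 156, 97.8, 87.4 and 85.7 CPM and fell (-1.03 ± 0.35, FDR 0.0192 in edgeR). In SVX_VAS it measured 84.0, 72.6, 73.6 and 120.0 CPM and fell by 1.32 on the log2 scale (SE 0.35, edgeR FDR 0.00488). Its partner subunit Rrm2 had a logFC of -0.29 ± 0.44 SE in INT, thymidylate synthase (Tyms) 0.02 ± 0.24, and thymidine kinase (Tk1) -0.18 ± 0.30, all overlapping with estrus. Cdc6 was the other replication gene called in any comparison of the main fit. It measured 12.0, 7.71, 8.32 and 16.4 CPM in SVX_VAS and fell (-1.30 ± 0.45, edgeR FDR 0.0235). With 1 library left out, 1 to 7 of the 14 replication genes were lower in SVX_VAS, against 2 in the main fit. The count was 0 to 2 in SVX, 0 to 6 in VAS and 0 in INT. The Cdc6 call was lost under glmTreat and without CONT 2, SVX_VAS 2 or SVX_VAS 3 (edgeR FDR 0.0609 to 0.0976), and that of Rrm1 in SVX under glmTreat and without CONT 1, SVX 3 or SVX 4 (FDR 0.0519 to 0.119).

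The mitosis genes all had lower mean levels than at estrus in every mated group. In INT the logFC of all 16 was below 0, with a median of -0.69, but Aurka was the only gene called. Aurka measured 52.2, 26.0 and 24.0 CPM at estrus and 11.6, 21.7, 22.0 and 14.3 CPM in INT (logFC -0.97 ± 0.37 SE, edgeR FDR 0.0427). Its groups did not overlap, but the call was lost without CONT replicate 1 (-0.52, edgeR FDR 0.320), without INT replicate 1 (-0.82, FDR 0.103) and without INT replicate 4 (-0.89, FDR 0.102). It was also lost under upper quartile scaling, glmTreat, no filter on low counts and the replicate block (edgeR FDR 0.0577 to 0.224). CONT replicate 1 was the highest of the estrus libraries for 16 of the 16 mitosis genes. Without it the median logFC of the 16 in INT was -0.30 and none was called.

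Cdk1, the kinase that drives entry into mitosis, measured 106, 67.1 and 56.9 CPM at estrus and 30.6, 59.5, 68.1 and 34.9 CPM in INT (logFC -0.67 ± 0.40 SE, edgeR FDR 0.191). Its partner Ccnb1, cyclin B1, measured 99.7, 42.8 and 46.7 CPM and 21.0, 41.2, 43.2 and 22.2 CPM (-0.98 ± 0.43, edgeR FDR 0.0705). INT replicates 2 and 3 for Cdk1, and replicate 3 for Ccnb1, reached the estrus range, and replicates 1 and 4 lay well below it for both. Of the 50-base words of Ccnb1, 23.4% also occur in other genes, so its level is less certain. The share was 10.4% for Cdc20 and 6.56% for Plk1. Ccnb2, cyclin B2, had a logFC of -0.82 ± 0.35 SE (edgeR FDR 0.0634), and Cdc25c, the phosphatase that activates Cdk1, -0.72 ± 0.40. Among the kinases and checkpoint genes, the INT values were -0.78 for Plk1 (polo-like kinase 1), -0.31 for Aurkb (Aurora B), -0.77 for Bub1, -0.56 for Bub1b and -0.31 for Ttk. The activator of the anaphase-promoting complex, Cdc20, was at -0.78. The motors Kif11 and Kif20a were at -0.35 and -0.34, the chromosomal passenger Birc5 (survivin) at -0.60, and the kinetochore genes Cenpe and Cenpf at -0.82 and -0.57.

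Mki67, Top2a and Ccna2 (cyclin A2) had a logFC of -0.42, -0.37 and -0.49 in INT, between the replication median of -0.28 and the mitosis median of -0.69, where single genes of both classes also lay. Mki67 measured 842, 459 and 486 CPM at estrus and 251, 578, 571 and 386 CPM in INT. INT replicates 2 and 3 lay within the estrus range and replicates 1 and 4 below it. Across the INT group replicates 2 and 3 both exceeded replicates 1 and 4 for 14 of 14 replication genes, 16 of 16 mitosis genes and 39 of the 44 genes.

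In SVX, 1 of the 44 genes rose (Ccnd2) and 12 fell. Across all genes tested, 23.1% were called higher and 18.4% lower. The median logFC was -0.59 over the 44 genes and -0.01 over all genes. The genes that fell were Rrm1, Ccnd1, Cdkn1a, Cdkn1b and 8 of the 16 mitosis genes: Ccnb1, Ccnb2, Cdc20, Cdc25c, Plk1, Aurka, Bub1 and Cenpe. Ccnb1 measured 39.9, 20.3, 17.0 and 18.9 CPM, with a logFC of -1.39 ± 0.43 SE (edgeR FDR 0.0115). Cdc20 measured 39.6, 24.3, 19.6 and 21.4 CPM against 96.0, 48.6 and 45.3 CPM at estrus (-1.27 ± 0.38, edgeR FDR 0.00978). In both genes all 4 SVX libraries lay below estrus and replicate 1 was the highest. SVX replicate 1 was the highest of its group for 41 of the 44 genes. The SVX libraries lay above all estrus libraries for 1 member (background 35.2%) and below them for 12 (background 35.7%). Without CONT replicate 1, 1 of the 44 genes was called lower (Cdkn1a), and the mitosis median moved from -1.02 to -0.65.

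In SVX_VAS, 1 of the 44 genes rose (Ccnd2) and 22 fell, against 22.1% higher and 16.4% lower among all genes tested. The median logFC was -0.89 over the 44 genes and -0.02 over all genes. All 16 mitosis genes fell, as did Mki67, Ccna2, Ccnd1, Cdkn1b, Cdc6 and Rrm1. The mitosis logFC ran from -0.86 for Kif20a to -1.79 for Ccnb1. Ccnb1 measured 20.0, 13.0, 13.7 and 26.1 CPM (edgeR FDR 0.00249). Aurka measured 10.1, 6.61, 9.50 and 14.03 CPM (-1.76 ± 0.38 SE, edgeR FDR 0.00102), and Cdk1 33.1, 19.7, 23.1 and 41.2 CPM (-1.39 ± 0.41, FDR 0.0087). Every SVX_VAS library lay below every estrus library for these 3 genes. The same held for 32 of the 44 genes, including all 16 mitosis genes, against a background of 34%, and 1 member lay above (background 33.5%). Replicate 2 was the lowest of its group for 39 of the 44 genes. Without CONT replicate 1, 9 of the 44 genes were called lower, 7 of them mitosis genes, and the mitosis median moved from -1.46 to -1.08.

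In VAS, 2 of the 44 genes rose (Ccnd2 and E2f1) and 2 fell (Ccnb1 and Ccnb2), against 23.2% higher and 17.2% lower among all genes tested. The median logFC was -0.43 over the 44 genes and -0.07 over all genes. With 1 library left out the former ran from -0.72 (without VAS 1) to -0.22 (without CONT 1), with -0.27 without VAS 2, and it was -0.05 without VAS replicates 2 and 3 together. Ccnb1 measured 52.3, 16.9, 29.9 and 21.8 CPM (logFC -1.06 ± 0.43 SE, edgeR FDR 0.0449). Ccnb2 measured 47.1, 19.4, 26.9 and 21.3 CPM against 79.9, 38.6 and 43.8 CPM at estrus (-0.92 ± 0.35, edgeR FDR 0.0338). Both calls were lost under upper quartile scaling, under glmTreat, with the 2 groups fitted alone, and without CONT 1, VAS 2, VAS 3 or VAS 4, and that of Ccnb1 also with no filter on low counts. Replicate 1 of each overlapped with estrus, and replicate 1 was the highest of its group for 40 of the 44 genes. The libraries lay above estrus for 2 members (background 26.7%) and below it for 2 (background 28.3%). Without replicate 1, 21 of the 44 genes were called lower, 9 of mitosis and 6 of replication. Without CONT replicate 1 none was called lower and the mitosis median moved from -0.67 to -0.24. Without replicates 2 and 3, which stood apart, none was called lower, and the median logFC was -0.36 for mitosis and 0.23 for replication. Gins2 and Pcna had their lowest values of all 19 libraries in these 2. Gins2 measured 66.3, 10.8, 15.1 and 44.5 CPM in VAS and Pcna 122, 28.3, 31.4 and 61.5 CPM.

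**Figure D3:**
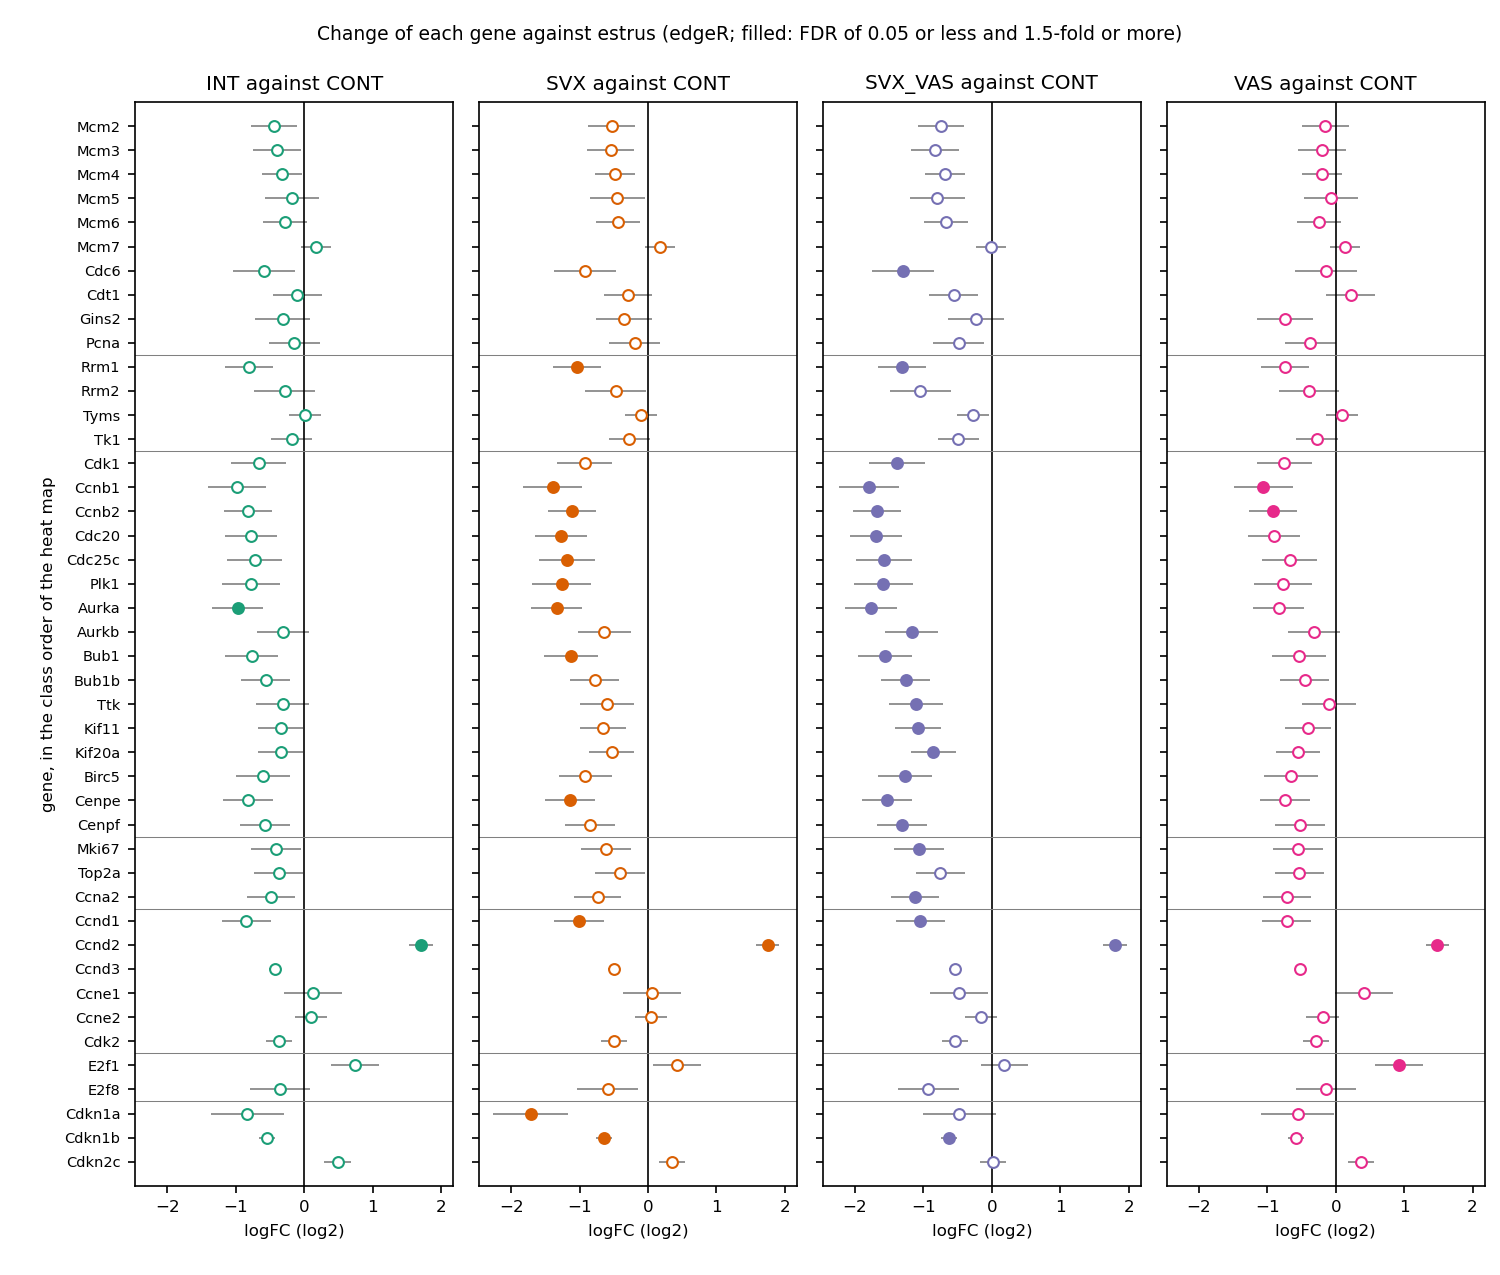
logFC (log2 scale) of the 44 genes against estrus in INT, SVX, SVX_VAS and VAS, with the SE as bars, filled where the gene was called and open where it was not. The 16 mitosis genes lie left of 0 in all 4 panels and are all filled in SVX_VAS, the median of the replication genes lies nearer to 0 than that of the mitosis genes while single genes of both overlap, and Ccnd2 is filled on the right in each panel.

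Mitosis and replication genes were next compared within each library, as the median log2 CPM of the 16 mitosis genes minus that of the 14 replication genes. The difference was 0.14, -1.09 and -0.47 at estrus. It was -1.31, -0.84, -1.08 and -1.16 in INT, -1.22, -1.25, -1.30 and -1.42 in SVX, -1.38, -1.66, -1.76 and -1.34 in SVX_VAS, and -1.29, -1.23, -0.82 and -1.35 in VAS. CONT replicate 2 lay among the libraries of INT and VAS, so these groups overlapped with estrus, while SVX and SVX_VAS did not. The mean was -0.475 ± 0.614 (SD, n = 3) at estrus, -1.10 ± 0.196 in INT, -1.30 ± 0.0912 in SVX, -1.54 ± 0.21 in SVX_VAS and -1.17 ± 0.243 in VAS (n = 4 each). The difference in INT was thus 0.62 below estrus in the mean, about the SD of the estrus group itself. Without CONT replicate 1 the differences of the means from estrus moved from -0.62 to -0.32 in INT, from -0.82 to -0.52 in SVX, from -1.06 to -0.75 in SVX_VAS and from -0.70 to -0.39 in VAS. Without CONT replicate 2 they moved the other way, to -0.93, -1.13, -1.37 and -1.01. Without VAS replicates 2 and 3 the VAS value was -0.85. With class means in place of medians the 4 differences were -0.34, -0.51, -0.69 and -0.31. The 3 estrus libraries differed in which genes were high: replicate 1 was highest for all 16 mitosis genes, replicate 2 for 11 of the 14 replication genes, and replicate 4 was lowest for all 14.

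**Figure D4:**
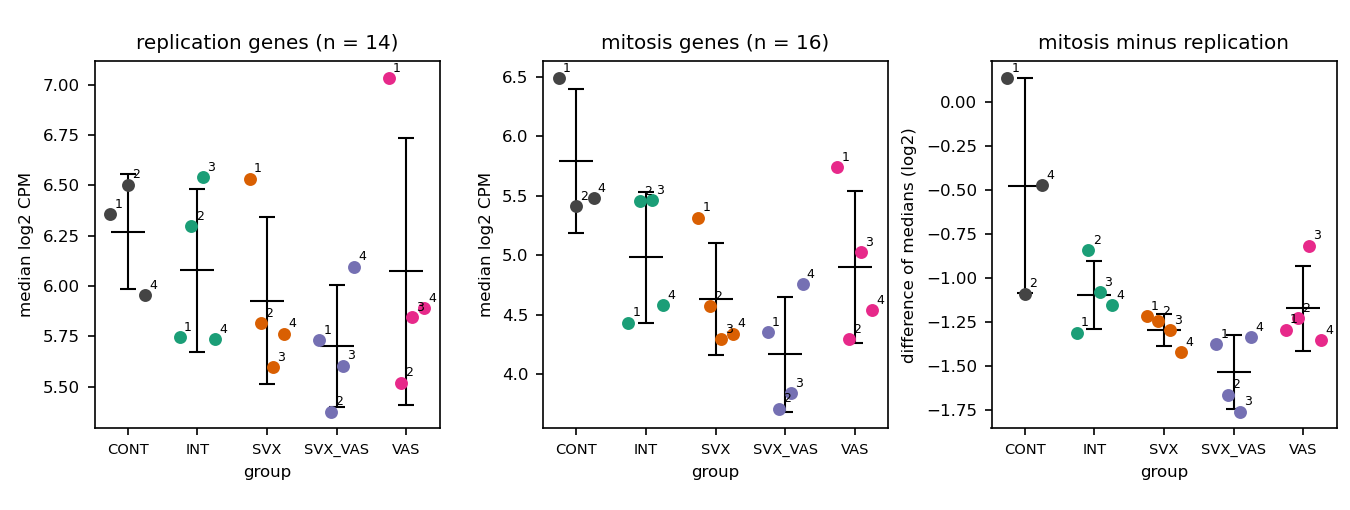
Median log2 CPM of the 14 replication genes, of the 16 mitosis genes, and their difference (mitosis minus replication) in each library (points), by group with mean and SD (bars). Replication medians lie between 5.38 and 7.03 with all groups overlapping, while the difference reaches 0.14 in CONT replicate 1 and is under -0.8 in all 16 libraries of day 3.5 pc.

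By group, the replication and mitosis genes gave these medians of logFC against estrus. In SVX the replication median was -0.44 and the mitosis median -1.02. In SVX_VAS they were -0.68 and -1.46, and in VAS -0.20 and -0.67. With 1 library left out, the replication median ran from -0.50 (without INT 3) to -0.14 (without INT 1) in INT, from -0.69 (without SVX 1) to -0.29 (without CONT 2) in SVX, from -0.80 to -0.58 in SVX_VAS and from -0.68 (without VAS 1) to -0.01 (without VAS 2) in VAS. All 16 mitosis genes were below 0 in all 4 comparisons. Ttk and Kif11 did not keep that sign under all alternatives. Without CONT replicate 1, Ttk was at 0.08 and Kif11 at 0.02 in INT, and Ttk at 0.30 in VAS. Ttk in VAS was also at 0.10 under upper quartile scaling, at 0.02 and 0.07 without VAS replicates 2 or 4, and at 0.01 without replicates 2 and 3 together. Of the 14 replication genes, 12, 13, 14 and 11 were below 0 in INT, SVX, SVX_VAS and VAS, and 11, 12, 13 and 8 under upper quartile scaling. That scaling moved the median of all genes by 0.129, 0.171, 0.147 and 0.199 on the log2 scale in these comparisons. The mitosis medians under it were -0.56, -0.85, -1.31 and -0.48.

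The mated groups were then compared with each other, with INT as the shared reference. In the edgeR test none of the 44 genes was called in SVX, SVX_VAS or VAS against INT, as was none of all genes tested (0% called). At an unadjusted p under 0.05 the members numbered 0, 10 and 0, against 749, 339 and 1831 of all genes. Without VAS replicates 2 and 3 the members numbered 0, 8 and 0, and all genes 1035, 607 and 163. The 10 in SVX_VAS were Cdkn2c and 9 mitosis genes. With DESeq2 the calls over all genes were 0 higher and 3 lower in SVX, 1 and 1 in SVX_VAS, and 0 and 0 in VAS, and with limma-voom 0 and 0, 0 and 0, and 19 and 1642. Limma-voom was not run without VAS replicates 2 and 3. The median logFC of the mitosis genes against INT was -0.32 in SVX, -0.79 in SVX_VAS and 0.00 in VAS, and that of the replication genes -0.15, -0.38 and 0.07. Without replicates 2 and 3 the VAS medians were 0.24 for mitosis and 0.43 for replication. These medians moved with single libraries. With 1 left out, the mitosis median ran from -0.60 (without SVX 1) to -0.15 (without INT 3) in SVX, from -0.99 to -0.58 in SVX_VAS, and from -0.31 (without VAS 1) to 0.18 (without INT 3) in VAS. The replication median ran from -0.38 (without SVX 1) to 0.03 (without INT 3) in SVX, from -0.50 (without SVX_VAS 4) to -0.18 (without INT 3) in SVX_VAS, and from -0.33 (without VAS 1) to 0.28 (without INT 3) in VAS. All 16 mitosis genes were below 0 in SVX and SVX_VAS and 8 of 16 in VAS. Cdkn1a in SVX was the only member whose libraries did not overlap with INT, where 2.6% of all genes did not overlap in SVX, 1.75% in SVX_VAS and 1.23% in VAS.

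Further genes of the same pathways were taken from lists by function, with the share of all genes called given as the background. For rises it was 20.9% in INT, 23.1% in SVX, 22.1% in SVX_VAS and 23.2% in VAS, and for falls 12.7%, 18.4%, 16.4% and 17.2%. Of 55 other mitosis genes tested, 8 fell (14.5%, background 12.7%) and none rose in INT, with a median logFC of -0.55 that ran from -0.73 (without INT 3) to -0.23 (without CONT 1) with 1 library left out. The largest falls were Ect2, which directs cytokinesis (-1.18), Anln, the contractile ring protein anillin (-1.14), and Ube2c, a ubiquitin-conjugating enzyme of anaphase (-1.07). In SVX 29 of the 55 fell (52.7%, background 18.4%), in SVX_VAS 39 (70.9%, background 16.4%) and in VAS 4 (7.27%, background 17.2%), and none rose. Without CONT replicate 1, none fell in INT and 5, 24 and 0 in the others. With single libraries left out the INT count was 0 to 11 (1 without INT 1, 0 without INT 4), the SVX count otherwise 14 to 36 (14, 16 and 15 without SVX 3, 2 and 4), and the VAS count 0 to 22 (22 without VAS 1, 0 without VAS 2 and 1 without VAS 3 or VAS 4). It was 0 in VAS without replicates 2 and 3 together.

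Of 44 other replication genes, 1 rose in INT (Timeless, a fork protection factor, 0.66) and 4 fell (9.09%, background 12.7%), with a median of -0.04 that ran from -0.21 (without INT 3) to 0.04 (without INT 1) with 1 library left out. The largest falls were Dbf4, the activator of the Cdc7 kinase (-0.81), Gmnn, geminin, the inhibitor of Cdt1 (-0.75), and Rpa3, a subunit of the single-strand binding protein (-0.68). In SVX, SVX_VAS and VAS, 1, 0 and 5 of the 44 rose and 6, 10 and 1 fell (13.6%, 22.7% and 2.27%). With single libraries left out, 1 to 4 fell in INT (1 without CONT 1, 2 without INT 1 or INT 4) and 0 to 2 rose (2 without INT 1, 0 without INT 3). In SVX 4 to 7 fell (7 and none higher without SVX 1), and in SVX_VAS 6 to 11 (6 without CONT 1, CONT 2, SVX_VAS 2 or SVX_VAS 3). In VAS 1 to 7 rose (1 without CONT 4, 2 without VAS 1) and 1 to 7 fell (7 without VAS 1, 2 without CONT 2 or VAS 4), and without replicates 2 and 3 together 8 rose and none fell.

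Replication-dependent histones package new DNA in S phase. The histone list took all symbols that begin with Hist1h, Hist2h, Hist3h or Hist4h, and was not limited to genes known to be replication-dependent. Of its 52 genes tested, none was called in INT, and 1, 13 and 2 fell in SVX, SVX_VAS and VAS (1.92%, 25% and 3.85%, with a background of 18.4%, 16.4% and 17.2%). The share was below the background of falls in INT, SVX and VAS and above it in SVX_VAS. Their median logFC was -0.33, -0.57, -1.004 and -0.82 in INT, SVX, SVX_VAS and VAS, with 49, 51, 51 and 50 of 52 below 0. With 1 library left out the median ran from -0.66 (without INT 3) to -0.18 (without INT 1) in INT and from -1.42 (without VAS 1) to -0.50 (without VAS 2) in VAS. The SVX count was 2 without SVX 1 and 0 without any other library. The SVX_VAS count was 1 to 19 with single libraries left out: 1 without CONT 2, 2 without CONT 1, SVX_VAS 1 or SVX_VAS 2, 4 without SVX_VAS 3, and 19 without SVX_VAS 4. The VAS count was 40 without VAS 1, 5 without VAS 4 and 1 without any other library, and without VAS replicates 2 and 3 together it was 0, with a median of -0.12.

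Of 25 other E2F, RB and DREAM genes, 2 rose (8%, background 20.9%) and 2 fell (8%, background 12.7%) in INT, with a median logFC of -0.05. Tfdp2, a dimerisation partner of E2F, rose by 1.18 (edgeR FDR 2.75e-05) and Skp2, which targets p27 for degradation, by 0.67. Cks2, a subunit of Cdk1 complexes, was at -1.32 and Fzr1, an activator of the anaphase-promoting complex in G1, at -0.75. In the 3 other groups 2, 1 and 3 rose (8%, 4% and 12%, background 23.1%, 22.1% and 23.2%) and 5, 6 and 2 fell (20%, 24% and 8%, background 18.4%, 16.4% and 17.2%). With single libraries left out these counts stayed within 1 to 3 higher and 1 to 6 lower in all 4 comparisons, and VAS had 5 lower without VAS 1. Of 16 other CDK inhibitors and p53 targets, 3 rose (18.8%, background 20.9%) and 3 fell (18.8%, background 12.7%) in INT, with a median of -0.11. Cdkn1c, which encodes the inhibitor p57, rose from a mean of 5.12 CPM to 23.4 CPM (logFC 2.19, edgeR FDR 5.00e-06). Sesn1 was at 1.22 and Phlda3 at 0.66, and the growth arrest genes Gadd45b, Gadd45a and Btg2 were at -1.74, -1.34 and -0.67. In the 3 other groups 3, 2 and 2 rose (18.8%, 12.5% and 12.5%, background 23.1%, 22.1% and 23.2%) and 5, 3 and 4 fell (31.2%, 18.8% and 25%, background 18.4%, 16.4% and 17.2%). With single libraries left out they stayed within 2 to 4 higher and 2 to 6 lower. Of the genes named from these lists, Timeless, Ube2c, Fzr1, Cdkn1c and Gadd45a share exon positions with a gene on the opposite strand, and without strand their reads cannot be told apart from that gene's.

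Markers of the cell types of the tissue moved beside these genes in INT, where 20.9% of all genes rose and 12.7% fell. Of 8 epithelial markers tested, 6 fell and none rose. All 7 endothelial markers rose, as did 4 of 8 stromal, 1 of 7 smooth muscle, 5 of 6 leukocyte (1 fell) and 2 of 3 erythroid markers. In SVX, SVX_VAS and VAS, 7 of 8 epithelial markers fell and all 7 endothelial markers rose in each. Of the 6 blastocyst markers, Cdx2, Nanog, Pou5f1 and Zp3 were under 1 CPM in every library. Elf5 had group means of 1.48 (SVX) to 2.34 CPM (SVX_VAS) and did not pass the filter. Gata6 passed it, with means of 2.42 CPM at estrus and 3.3, 3.2, 3.3 and 4.34 CPM in INT, SVX, SVX_VAS and VAS. Its logFC was 0.45, 0.40, 0.45 and 0.84, called in none, and its INT libraries all lay above estrus. Of the hormone lists, 2 of 8 estrogen-response genes fell in INT and 8 of 10 progesterone-response genes rose. In SVX, SVX_VAS and VAS, 7, 2 and 3 of the estrogen-response genes fell, with a median logFC of -4.92, -2.15 and -3.26, and 8, 7 and 8 of the progesterone-response genes rose. The part of these lists in the falls of the division genes was not tested. Within INT the median log2 CPM of the estrogen-response genes was 9.63 and 8.92 in replicates 1 and 2 and 4.30 and 4.49 in replicates 3 and 4. This order differed from that of the division genes in INT, which were high in replicates 2 and 3. In SVX and VAS the estrogen list was highest in replicate 1 (5.95 and 8.82). Those libraries were the highest for 41 and 40 of the 44 genes. In SVX_VAS it was highest in replicate 2 (9.08), the lowest library for 39 of the 44 genes. The relation between these orders was not tested.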

How the data were processed

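Whole gene counts of 19 mouse endometrium libraries were analysed. Per the study's methods the authors checked reads with FastQC, trimmed them with AdapterRemoval, aligned them with STAR to GRCm38 and counted genes with featureCounts. The deposited counts are not normalized, and whether strand was used was not given in the sources used here. Samples were grouped by the column names in their descriptions. The filter kept genes that reached 3 CPM in 3 or more libraries. All 5 groups were fitted together in edgeR 4.0.16 (R 4.3.3) with TMM factors and the quasi-likelihood test, and p-values were adjusted by Benjamini-Hochberg over all 17222 genes. The estimate of spread per gene is shared across the groups, so VAS replicates 2 and 3 also enter the SE of comparisons without VAS. CPM, log2 CPM (prior count 2) and RPKM were computed from the counts with these library sizes, and SE is on the log2 scale. The 44 members and the lists were chosen with earlier results of these data known. Members are all described. From the other pathway lists the 3 largest rises and 3 largest falls called in INT against CONT are named. No library was identical to another. A count of 0 allows up to 3 counts, 0.0944 to 0.237 CPM across the libraries, for counting error only. The alternatives tried were upper quartile scaling, DESeq2 1.42.0 and its size factors, limma-voom (limma 3.58.1), glmTreat, other filters, no minimum fold, only the compared groups, a replicate block, and each replicate left out. Leaving out VAS replicates 2 and 3 together was chosen after seeing the data. The test was checked on simulated data for INT against CONT, in which 200 of 17222 genes were changed. Of 100 genes changed 2-fold it recovered 56, and of 100 changed 4-fold it recovered 84, with 6 false calls. In the data 3595 genes were called higher and 2185 lower, far more than were changed in the simulation. The recovered shares therefore do not give the power of the tests reported here. Figures were drawn with matplotlib 3.10.9.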

Additional observations from a re-analysis of the deposited data

Results flagged for a closer look

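Among 204 values searched (each gene and class median in each group of 4), 16 had 1 library whose gap to the nearest other, as a share of the range of the group, passed Dixon's 95% critical value. Chance alone gives about 5% of them, or 10.2.

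SVX replicate 1 was the high library in 6 genes and 1 class median. It had 104 CPM of Mcm2 (58.0 to 59.2 in the other 3), 24.9 of Cdc6 (9.74 to 11.6), 59.2 of Rrm2 (21.3 to 24.5), 39.9 of Ccnb1 (17.0 to 20.3), 136 of Ccnd1 (74.9 to 78.0) and 36.1 of E2f8 (14.1 to 16.1). The median log2 CPM of the E2F factors was 4.62 in it, against 3.42 to 3.53 in the others.

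VAS replicate 1 was the high library in 6 genes. It had 158 CPM of Mcm3 (52.6 to 67.6 in the other 3), 147 of Mcm5 (49.6 to 61.8), 224 of Mcm6 (77.5 to 98.2), 239 of Rrm1 (77.0 to 102), 216 of Ccnd1 (62.6 to 87.6) and 65.7 of Cdk2 (37.6 to 39.3).

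Cdkn1a was high in replicate 2 of SVX_VAS, at 24.2 CPM against 5.28 to 6.29, and in replicate 2 of VAS, at 21.0 CPM against 4.70 to 6.87. Cdkn1b was low in VAS replicate 3, at 69.3 CPM against 80.4 to 82.4.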

How the results depend on the processing

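No called change of a member changed direction under any alternative, and 5460 single-gene results kept their side of the threshold while 112 passed it and 104 lost it. The 5460 include results called neither in the main fit nor under the alternative. Of the members called against estrus, 1 of 2 in INT, 2 of 13 in SVX, 9 of 23 in SVX_VAS and 1 of 4 in VAS kept the call under every alternative. The Ccnd2 call held in all 4 comparisons with estrus, the Cdkn1a call in SVX, and the calls of Rrm1, Ccnb1, Ccnb2, Cdc20, Cdc25c, Aurka, Bub1 and Cenpe in SVX_VAS. The causes of the moves below were not tested.

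In INT against estrus, the count of members higher moved from 1 to 3 under upper quartile scaling and to 2 with no minimum fold. The count lower moved from 1 to 0 under upper quartile scaling, under glmTreat and with no filter on low counts. It was 2 with DESeq2, 4 with the 2 groups fitted alone, and 3 both with no minimum fold and without VAS replicates 2 and 3. With a single library left out, 1 to 3 members were higher (3 without INT 1) and 0 to 5 lower: 0 without CONT 1, INT 1 or INT 4, 4 without CONT 2 and 5 without INT 2.

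In SVX, glmTreat left 2 of the 12 members lower. With a library left out the count was 1 to 20: 1 without CONT 1, 7 without SVX 3 and 20 without SVX 1. In SVX_VAS, glmTreat left 12 of 22, and the count was 9 (without CONT 1) to 28 (without SVX_VAS 4) with a library left out.

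In VAS, the count of members higher moved from 2 to 1 under glmTreat and with no filter. With a library left out it was 1 to 2, the lower value without CONT 1, CONT 4, VAS 1 or VAS 3. The count lower moved from 2 to 0 under upper quartile scaling, under glmTreat, with the 2 groups fitted alone and without VAS replicates 2 and 3, and it was 8 with limma-voom, 4 with filterByExpr and 4 with no minimum fold. With a library left out it was 0 to 21: 0 without CONT 1 or VAS 3, 1 without VAS 2 or VAS 4, 4 without CONT 2 or CONT 4, and 21 without VAS 1. Upper quartile scaling also moved the share of higher genes among all genes called in VAS from 57.4% to 70.5%. Against INT no member was called with a library left out.

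The correlations of same-numbered deviations varied in sign and size between comparisons, and replicate numbers were not used as pairs in the main fit. In INT against estrus these were 0.125, -0.30 and 0.165, in SVX 0.278, -0.00181 and 0.0749, in SVX_VAS -0.0906, -0.0184 and -0.168, and in VAS 0.297, 0.13 and 0.0668. A library correlated best with its own number in 3, 2, 0 and 6 of 6 cases, a hint from the data in VAS. Against INT a library did so in 1, 1 and 4 of 8 cases in SVX, SVX_VAS and VAS. The correlations in SVX_VAS against INT were -0.688, 0.443, 0.583 and -0.442. With the replicate block, members lower went from 1 to 0 in INT (Aurka) and from 22 to 21 in SVX_VAS (Kif20a), members higher from 2 to 1 in VAS (E2f1), and SVX stayed at 1 higher and 12 lower.

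All members were counted in every library, with counts as low as 53 for Cdc25c and 55 for Cdkn1a. Whether depth limited the calls was not tested. The limits are the 3 estrus pools, the unlike hours of collection, the VAS libraries of unlike composition, the conflicting labels, and mixed tissue. Without CONT replicate 1, none of the 16 mitosis members was called in INT, SVX or VAS. Of the 55 other mitosis genes, 5 still fell in SVX without it.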
